A study of Homo sapiens with 6 samples.

Results

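Macroautophagy encloses part of the cytoplasm in a double membrane and delivers it to the lysosome, where it is digested. The ULK1 kinase complex starts the process, and the class III phosphatidylinositol 3-kinase complexes mark the site with the lipid PI3P. ATG9 and the ATG2 proteins then supply membrane, and 2 conjugation systems attach ATG8 proteins to it, where cargo receptors bind. Transcription factors of the TFEB family switch on many genes of this route and of the lysosome. Oxygen shortage is a known inducer of autophagy, partly through hypoxia-inducible factor (HIF) and the mitophagy receptors BNIP3 and BNIP3L, which mark mitochondria for removal.

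The 40 genes described here are a named list of the core machinery and lysosome control genes in 7 roles, taken by symbol with a rule that uses no measured value. The list itself was chosen with earlier results of these data known. All 40 were found among the 22153 genes of the table, and 35 passed the filter for testing, which kept 10237 genes. The cells were EA.hy926, an established human hybrid line of endothelial (umbilical vein) and lung carcinoma (A549) parentage, and not a primary endothelium. Polyadenylated RNA was sequenced from 3 normoxia libraries, grown at 20% oxygen, and 3 hypoxia libraries, held at 1% oxygen for 8 h once nearly confluent; the labels name no other treatment. The labels do not say that the libraries of a group came from separate cultures, so each p-value rests on the spread of these 6 libraries alone, part of which may be technical.

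The libraries held 17226736 to 18652704 reads in genes. Summed FPKM (reads per exon length and sequencing depth, computed here) of 10 endothelial markers lay between 349.4 and 766.7 in normoxia (hypoxia, 405.5 to 1017), but EMCN had 4 reads at most. Exon length merges all annotated exons of a gene, so ranks of level between genes depend on that choice and were not checked with another. Of 8 epithelial markers 7 were in the table, with sums of 695.5 to 1124 and 620.1 to 962.6, carried by the keratins KRT7, KRT8 and KRT18. EPCAM, KRT19 and CLDN4 had 25 reads at most, MUC1 had 0.939 FPKM and CDH1 was not in the table. The sums of 5 leukocyte markers in the table reached 3.37 at most, and those of 4 fibroblast and mural markers 4.27. A check of 8 genes known to rise in hypoxia gave 7 that could be tested. Of these, 5 were called by limma, against 0.0977% of all genes tested. All 7 lay higher in every hypoxia library than in any normoxia library. Groups did not overlap, in either direction, for 7.48% of all genes tested. The 8 genes were chosen with earlier results of these data known, so the check is not independent.

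None of the 35 core genes tested passed the test for a change after 8 h at 1% oxygen (limma, adjusted p of 1.00 for each). Over all genes the same test called 10 of 10237, all higher in hypoxia, which is 0.0977%. No core gene reached an unadjusted p below 0.05 by limma, and the lowest was 0.106 for ATG2A. Over all genes 275 of 10237 did, a share at which few of 35 genes would, so this is no contrast with the other genes. The count tests also called no core gene: edgeR called 10 of 10237 genes (0.0977%), and DESeq2 called 58 of 14411 (0.402%), with all 40 core genes among those it adjusted. In bulk RNA, fewer cells expressing a gene and less RNA per cell cannot be told apart, and RNA levels are not a measure of autophagic flux, which runs through proteins and membranes.

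The differences between the groups were small. Log2 differences, given throughout as hypoxia minus normoxia on the log2(FPKM + 0.1) scale, ran from -0.45 (ATG2A) to 0.52 (PIK3C3) with a median of 0.10, where the median of all genes tested was 0.00. They were positive for 21 core genes and negative for 14, so 60.0% were positive against 50.6% of all genes. The 95% interval lay inside a 2-fold change either way for 25 of the 35 core genes, 71.4%, where it did for 58.4% of all genes tested. A 1.5-fold bound held for 2 core genes, MAP1LC3B and GABARAPL2, which is 5.71% against 5.9% of all genes. For the other 10 (ULK1, RB1CC1, ATG14, PIK3C3, ATG2A, ATG4C, ATG5, ATG12, TAX1BP1 and LAMP1) the interval reached past 2-fold in at least 1 direction, so a difference of that size is not excluded.

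**Figure D1:**
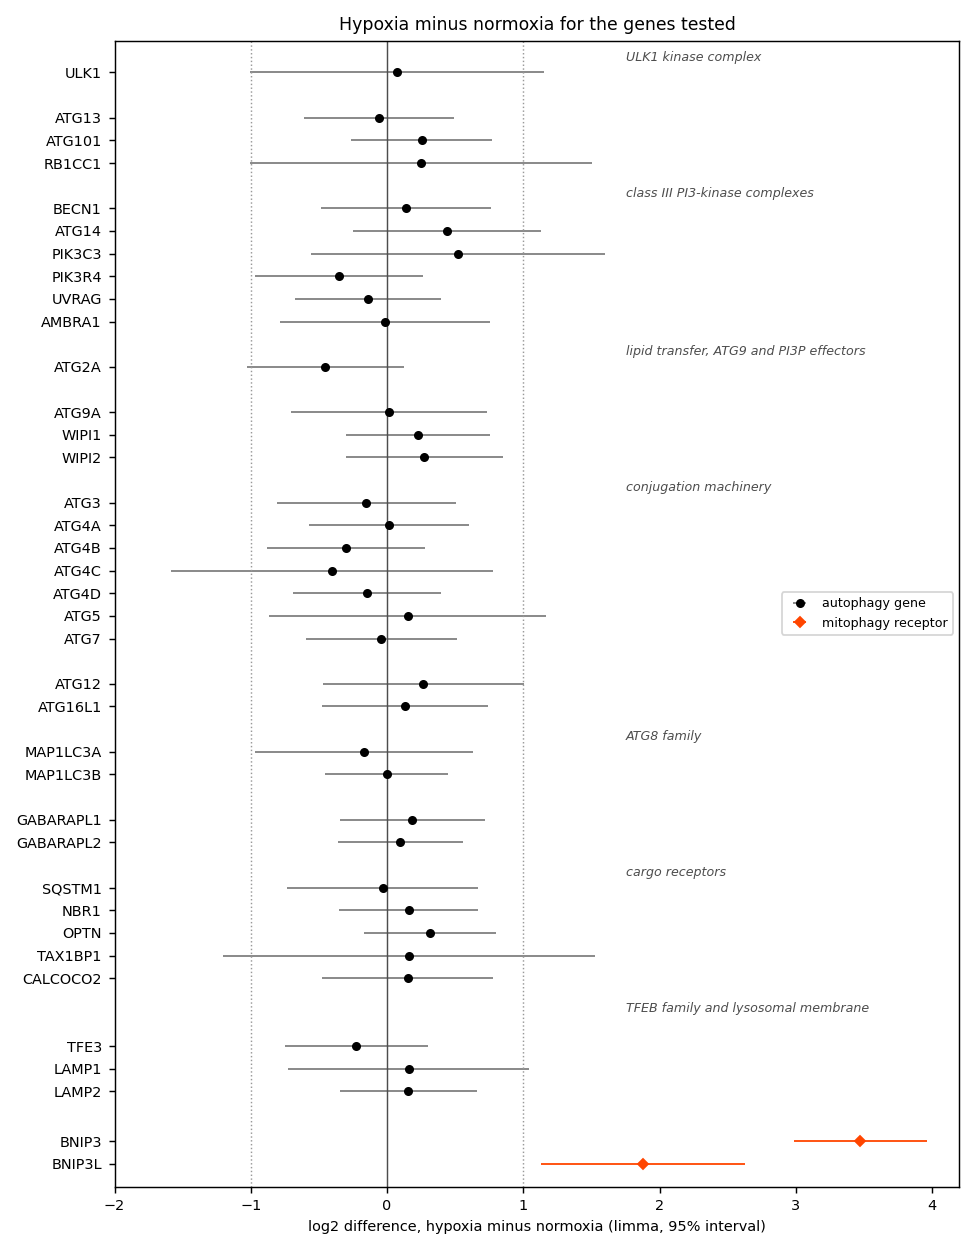
Log2 difference between hypoxia and normoxia (x axis, log2(FPKM + 0.1) scale) for the 35 core genes tested, by role, with the mitophagy receptors BNIP3 and BNIP3L below. Points are limma estimates, bars are 95% intervals and dotted lines mark a 2-fold change; every core gene's interval crosses 0, while those of BNIP3 and BNIP3L lie above 1.

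The complex that starts autophagy was carried by ULK1, ATG13, ATG101 and RB1CC1 (FIP200), while ULK2 was close to absent. ULK2, the second kinase of the pair, had 18, 18 and 14 reads in normoxia and 15, 11 and 5 in hypoxia, a mean of 0.0768 FPKM against 7.29 FPKM for ULK1. ULK2 was below the filter, so it was not tested by limma. Values below are scaled reads, that is reads divided by the library's size factor, in normoxia replicates 1 to 3 and then hypoxia replicates 1 to 3. ATG101, which stabilises ATG13 in the complex, had the highest level of the role at 32.4 FPKM, and its scaled reads were 2012, 1571 and 1488, then 2379, 1970 and 1700. Its hypoxia values were partly higher but the groups overlapped (1690 ± 282 against 2016 ± 342, SD, n = 3; log2 0.25, SE 0.22).

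ULK1 itself, on chromosome 12, differed more within groups than between them. Its scaled reads were 1479, 986.7 and 480.6 in normoxia and 672, 1531 and 794.7 in hypoxia. Its highest hypoxia library and the highest normoxia library were close together, and the log2 difference was 0.07 (SE 0.47). RB1CC1, the large scaffold of the complex, had 640.4 in normoxia replicate 3 against 122.9 and 201.7 in the other normoxia libraries, and 292.5, 269.6 and 359.3 in hypoxia. Its difference of 0.25 (95% interval -1.01 to 1.51) turned negative under the count tests. ATG13, the regulatory subunit, had a difference of -0.06 at 22.1 FPKM.

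Among the 6 genes of the class III PI3-kinase complexes, 3 had positive and 3 negative differences, with a median of 0.06. PIK3C3 (VPS34), the kinase that makes PI3P, had the largest difference, with scaled reads of 162, 256.6 and 482.4 in normoxia and 472.9, 248.9 and 561.8 in hypoxia. Its groups overlapped, with hypoxia replicate 2 below normoxia replicate 2 (log2 0.52, SE 0.47, 95% interval -0.56 to 1.60). The difference was 0.19 without normoxia replicate 1 and 0.90 without normoxia replicate 3. ATG14, which directs the kinase to the forming autophagosome, had 481.9, 436.6 and 301.9, then 453.2, 743.5 and 479.1. Here 1 library, hypoxia replicate 2, stood above the other 5, and the difference was 0.44 (-0.25 to 1.13).

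AMBRA1, a partner of Beclin 1 and an adaptor of ubiquitin ligases, had the highest level of the role at 7.68 FPKM. Its scaled reads were 1262, 970.6 and 870.8 in normoxia and 792.3, 1618 and 800.4 in hypoxia, so the group means of 1035 ± 204 and 1070 ± 474 (SD, n = 3) were close while hypoxia replicate 2 was the highest of the 6. BECN1 (Beclin 1), the scaffold of both complexes, had a difference of 0.14 (-0.49 to 0.76). UVRAG, which takes the place of ATG14 in the endosomal complex, had one of -0.14, and PIK3R4 (VPS15), the regulatory subunit, one of -0.35 (-0.97 to 0.26). The PIK3R4 values were 186.4, 264.2 and 241.7 in normoxia and 190.8, 165.9 and 174 in hypoxia, and only hypoxia replicate 1 reached into the normoxia range.

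Of the ATG2 proteins, which carry lipids to the growing membrane, ATG2A had the higher RNA level. It had 9.74 FPKM and ATG2B 0.59 FPKM, with 85, 171, 297, 114, 129 and 159 reads in the 6 libraries in the same order, so ATG2B was below the filter. ATG2A had the most negative difference of all core genes: its scaled reads were 1799, 1573 and 1364 in normoxia and 935.5, 1430 and 1116 in hypoxia. Hypoxia replicate 2 lay inside the normoxia range and the other 2 hypoxia libraries below it (1579 ± 218 against 1160 ± 250, SD, n = 3). The log2 difference was -0.45 (SE 0.25, 95% interval -1.03 to 0.12, unadjusted p = 0.106 and adjusted p = 1.00 by limma).

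The PI3P readers WIPI1 and WIPI2 both had positive differences. WIPI1, at 14.6 FPKM the highest of the role, had scaled reads of 891.8, 918.6 and 649.8, then 830.7, 1003 and 1029. Hypoxia replicate 1 fell inside the normoxia range and the difference was 0.23 (-0.31 to 0.76). WIPI2, which recruits the ATG16L1 complex, had 2397, 2167 and 1440, then 2339, 2492 and 2274, where normoxia replicate 3 was the lowest by far (0.27, -0.30 to 0.85). ATG9A, the membrane protein of the seed vesicles, had a difference of 0.01. A gene model on the same strand (AC068946.2) shares 38.8% of its exon bases, so its count may be incomplete.

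The 10 conjugation genes attach ATG12 to ATG5 and ATG8 proteins to lipid. Of the 9 tested, 4 had positive and 5 negative differences, with a median of -0.04. ATG4A, a protease that trims ATG8 proteins, had the highest level at 12.2 FPKM, with scaled reads of 527.4, 679.9 and 690.3, then 678.3, 488.4 and 770. Both the lowest and the highest library were in hypoxia, and the difference was 0.01 (-0.57 to 0.60). ATG4C, a less active member of that protease family, had the largest difference of the role and the least secure one. It had 76.26, 76.7 and 255.8 scaled reads in normoxia and 104.7, 55.99 and 106.5 in hypoxia. Normoxia replicate 3 alone stood above the rest, and without it the difference went from -0.40 (SE 0.51) to 0.15.

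ATG4B, the main protease of the family, had a difference of -0.30 (-0.88 to 0.28) and ATG4D one of -0.15. ATG5, the acceptor of ATG12, ran from 181.1 to 531.3 scaled reads in normoxia and from 217.8 to 414.8 in hypoxia (0.15, -0.86 to 1.16), and ATG12 had a difference of 0.27. ATG7, the E1-like enzyme that starts both conjugations, had one of -0.04 (-0.60 to 0.52), and ATG3, the E2-like enzyme for ATG8 proteins, one of -0.15. ATG16L1, which brings the ATG12-ATG5 conjugate to the membrane, had one of 0.13. ATG10, the E2-like enzyme for ATG12, was just below the filter at 0.907 FPKM, with 73, 98, 54, 91, 72 and 147 reads. Its exons overlap 374 bases of the ribosomal protein gene RPS23 on the other strand, which had a mean of 9325 scaled reads against 88.3, and whether the counting used strand is not known here. ATG7 (1596 bases shared with VGLL4), ATG12 (378 bases with AP3S1), ATG4D (341 bases with KRI1) and BECN1 (300 bases with PSME3) have overlaps of the same kind. So do, among others, ATG2B (419 bases with GSKIP), ATG4B (237 with THAP4), ATG3 (151 with SLC35A5) and MAP1LC3B (150 with FBXO31).

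The ATG8 family, the small proteins that coat the growing membrane and bind cargo receptors, had the lowest median within-group SD of the 7 roles, 0.18 on the log2 scale. All 4 members tested had intervals inside a 2-fold change. MAP1LC3B (LC3B), the usual marker of autophagosomes, lies on chromosome 16 (GRCh38 87383995 to 87404779, plus strand) and had the highest level at 22.7 FPKM. Its scaled reads were 2097, 2036 and 2335 in normoxia and 2219, 2325 and 1922 in hypoxia. Both groups covered almost the same range, with means of 2156 ± 158 and 2155 ± 209 (SD, n = 3). The log2 difference was 0.00 (SE 0.20, 95% interval -0.45 to 0.45), which bounds the hypoxia level between 0.731 and 1.36 times that in normoxia. Its near-identical copy MAP1LC3B2 had 22.57 to 73.63 scaled reads, and how the counting treated reads that match both copies is not known here.

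GABARAPL1, of the GABARAP branch of the family, had the largest difference of the role, with 951.1, 1170 and 929.1 scaled reads and then 1059, 1006 and 1433. Hypoxia replicate 3 was the highest and the other 2 hypoxia libraries lay inside the normoxia range (0.19, -0.35 to 0.72). GABARAPL2 (0.10, -0.36 to 0.56) was at 18.9 FPKM. MAP1LC3A, another LC3 protein, was lower at 4.70 FPKM (-0.17, -0.97 to 0.63). GABARAP was listed low, with 62, 22, 40, 21, 47 and 27 reads and 0.907 FPKM, and was not tested. A gene model on the same strand (AC120057.2) shares 30.5% of its exon bases, so this count may be incomplete. Summed over the 5 genes, the FPKM were 59.6, 60.8 and 62.0 in normoxia and 62.1, 63.4 and 64.9 in hypoxia (60.8 ± 1.19 against 63.5 ± 1.35, SD, n = 3). The lowest hypoxia sum was just above the highest normoxia sum, and the sums were not tested. They leave out MAP1LC3B2 and hold the GABARAP count that may be incomplete.

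**Figure D2:**
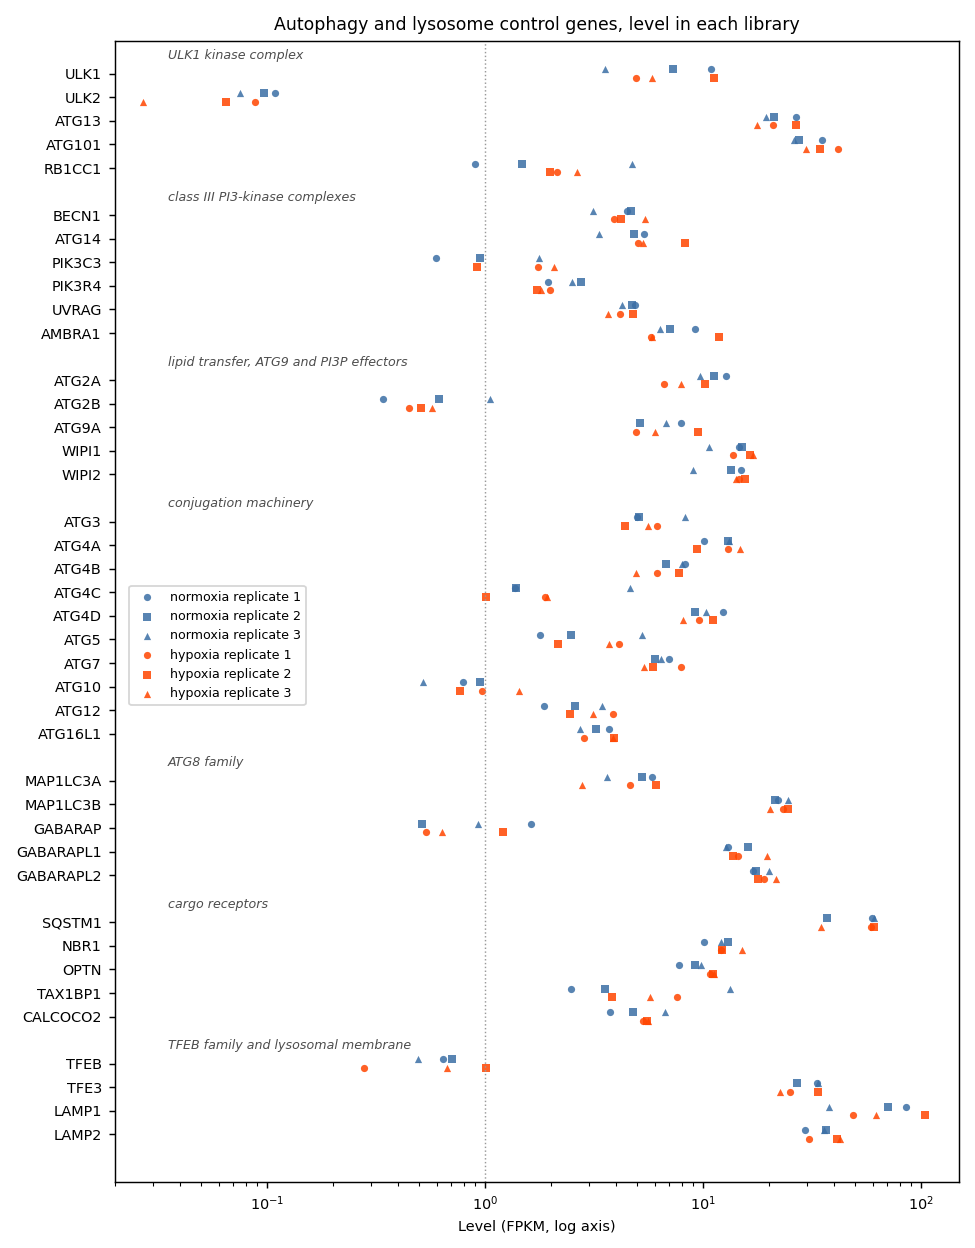
Level of the 40 core genes in each of the 6 libraries (x axis, FPKM on a log axis), grouped by role; blue marks are normoxia, orange marks hypoxia, shapes are replicate numbers and the dotted line is 1 FPKM. ULK2, ATG2B, ATG10, GABARAP and TFEB lie around or below the line, and blue and orange marks overlap for every tested gene but OPTN.

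Cargo receptors hold ubiquitinated proteins, organelles or bacteria against the ATG8 coat. SQSTM1 (p62), the receptor for protein aggregates, lies on chromosome 5 and was the most abundant at 52.1 FPKM. Its scaled reads were 8131, 5074 and 8341 in normoxia and 8091, 8326 and 4778 in hypoxia. Each group held 2 high libraries and 1 low one, the ranges overlapped, and the means of 7182 ± 1828 and 7065 ± 1984 (SD, n = 3) gave a log2 difference of -0.03 (SE 0.30). NBR1, which works with SQSTM1, had a difference of 0.16, and CALCOCO2 (NDP52), a receptor for bacteria and mitochondria, one of 0.15. TAX1BP1, another receptor for ubiquitinated cargo, had 406.7, 583.3 and 2170 scaled reads in normoxia and 1251, 629.4 and 933.5 in hypoxia. Normoxia replicate 3 was the highest library, and the within-group SD of 0.95 on the log2 scale was the largest of the 40 genes.

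OPTN (optineurin), a receptor for damaged mitochondria and bacteria, was the only one of the 35 core genes tested whose groups did not overlap. It lies on chromosome 10 (GRCh38 13099449 to 13138308, plus strand). Its scaled reads were 714.9, 843.8 and 896.2 in normoxia and 992.5, 1021 and 1030 in hypoxia. All 3 hypoxia libraries were close together and above the highest normoxia library. The means were 818 ± 93.3 and 1015 ± 19.8 (SD, n = 3), a ratio of 1.24. The log2 difference of 0.31 (SE 0.21, 95% interval -0.17 to 0.80) did not pass the test (limma, unadjusted p = 0.173 and adjusted p = 1.00; 0.829 to 1.00 over the alternatives). Groups that do not overlap were found for 766 of the 10237 genes tested, 7.48%, so 1 of 35 core genes, 2.86%, is not above the background.

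Because OPTN was the gene with separate groups, its promoter was read for the core of the HIF binding site, ACGTG, and for the sequence bound by TFEB, TCACGTGA. The RefSeq table (GRCh38.p14, 250 bases before to 50 after a start) gives 2 starts for OPTN, and neither window holds either sequence on either strand. The window of the first start, chr10:13099832-13100131 on the plus strand, is printed below with nothing in capitals because nothing matched.
OPTN: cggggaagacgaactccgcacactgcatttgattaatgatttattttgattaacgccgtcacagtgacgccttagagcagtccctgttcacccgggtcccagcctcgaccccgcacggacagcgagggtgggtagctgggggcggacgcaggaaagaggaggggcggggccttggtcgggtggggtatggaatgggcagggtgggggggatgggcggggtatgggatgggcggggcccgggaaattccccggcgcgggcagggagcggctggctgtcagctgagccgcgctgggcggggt

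The lysosomal group held the transcription factors TFEB and TFE3 and the membrane proteins LAMP1 and LAMP2. In these cells TFE3 had 29.2 FPKM and TFEB 0.632 FPKM. TFEB had 61, 75, 53, 27, 98 and 71 reads and was below the filter. TFE3, on the X chromosome, had 2550, 2069 and 2580 scaled reads in normoxia and 1917, 2575 and 1726 in hypoxia. Hypoxia replicate 2 lay inside the normoxia range and the other 2 hypoxia libraries below it, with a difference of -0.23 (SE 0.23, -0.75 to 0.30). Activity of these factors is set largely by their movement between cytoplasm and nucleus, which RNA levels do not show.

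LAMP1, the most abundant of the 40 genes at 68.1 FPKM, had 8711, 7249 and 3868 scaled reads in normoxia and 5011, 10687 and 6355 in hypoxia. Its highest library was hypoxia replicate 2 and the lowest normoxia replicate 3, so the range inside each group was wider than the distance between the means of 6609 ± 2484 and 7351 ± 2966 (SD, n = 3; log2 0.16, SE 0.38). ULK1 had the same order of the 6 libraries as LAMP1. LAMP2, the receptor of chaperone-mediated autophagy, had 2904, 3613 and 3553, then 3024, 4055 and 4214, where 2 hypoxia libraries were above all normoxia libraries and 1 was not (0.16, -0.34 to 0.66).

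The promoters of the core genes show which of them carry a TFEB-type sequence. Of the 40 genes, 35 were in the RefSeq promoter table with 45 windows of 300 bases; ATG4D, RB1CC1, UVRAG, MAP1LC3A and LAMP2 were not. TCACGTGA, searched on both strands, was in 2 of the 45 windows (4.44%), those of LAMP1 and ATG3, and in 0.98% of all 35116 windows. The shorter CACGTG, which is contained in it, was in 3 (6.67%, with ATG14 added) against 7.26%, and ACGTG, contained in both, was in 12 (26.7%) against 21.4%. A match is only a description of the letters. The stretches around the longest match are printed 5′ to 3′ on the gene's strand, with TCACGTGA in capitals for LAMP1 (chr13:113297184-113297270, plus) and ATG3 (chr3:112561925-112561984, minus), and CACGTG in capitals for ATG14 (chr14:55411820-55411877, minus).
LAMP1: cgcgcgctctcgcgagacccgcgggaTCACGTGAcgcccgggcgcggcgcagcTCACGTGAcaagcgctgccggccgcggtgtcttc
ATG3: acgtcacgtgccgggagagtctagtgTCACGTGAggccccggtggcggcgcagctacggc
ATG14: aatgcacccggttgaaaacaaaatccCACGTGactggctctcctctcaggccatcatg
LAMP1 holds 2 copies, beginning 29 and 2 bases before its start, ATG3 holds 1 beginning 4 bases after it, and the ATG14 match begins 21 bases before. None of the 3 genes passed the test, with log2 differences of 0.16, -0.15 and 0.44.

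Differences between libraries of the same group moved with the base composition of the genes. In normoxia replicate 3, minus the mean of the other 2 normoxia libraries, 12 of 13 core genes with a GC content under 45% were positive (median log2 0.69) and 4 of 11 with 55% or more (median -0.26). In hypoxia replicate 2, minus the other 2 of its group, the pattern was opposite, with 2 of 13 positive (median -0.41) and 10 of 11 positive (median 0.50). Over the 40 genes, Pearson's r with GC content was -0.62 and 0.75 (Spearman's rho -0.64 and 0.76), and over all genes tested it was -0.58 and 0.52. These are correlations across genes, which share the libraries and are not independent replicates, so no p is given. In normoxia replicate 3 the highest values were those of TAX1BP1, RB1CC1 and ATG4C, with 40.8%, 40.4% and 35.5% GC, and the lowest that of ULK1, with 64.1%. In hypoxia replicate 2 the lowest were those of PIK3C3, ATG4C and ATG5 (38.9%, 35.5% and 39.4% GC), and ULK1 was the highest. Over all genes tested, each library was also set against the mean of all 6 libraries. Its slope, in log2 per 10% GC, was 0.357, 0.090 and -0.437 in normoxia replicates 1 to 3. In hypoxia replicates 1 to 3 it was -0.156, 0.275 and -0.129, so normoxia replicate 1 had the steepest positive slope. The part of base composition in the differences between groups was not tested. With the GC trend of each library removed, no core gene was called either, while the count over all genes went from 10 to 27.

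**Figure D3:**
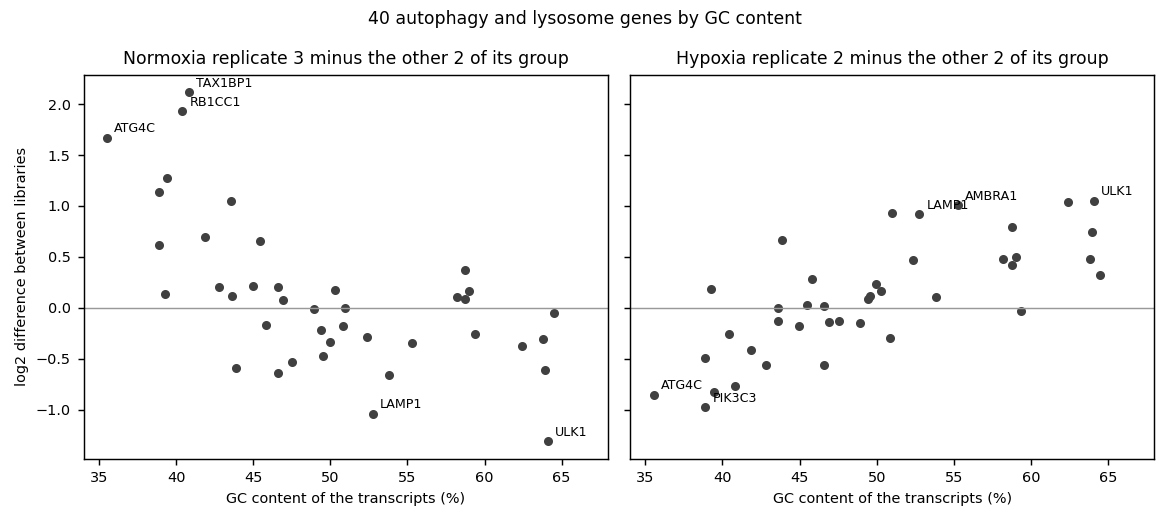
GC content of each core gene's transcripts (x axis, %) against the log2 difference of 1 library from the mean of the other 2 of its group (y axis), for normoxia replicate 3 (left) and hypoxia replicate 2 (right). Each point is 1 of the 40 genes; the points fall with GC content on the left (r = -0.62) and climb on the right (r = 0.75).

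Beside the core machinery, 115 further genes of 7 related lists were compared, of which 114 were in the table and 107 were tested. Only 1 was called, the mitophagy receptor BNIP3, which is also among the hypoxia check genes. BNIP3 had 520, 572.9 and 694 scaled reads in normoxia and 6951, 5879 and 7254 in hypoxia. All hypoxia libraries were far above all normoxia libraries, with means of 596 ± 89.2 and 6695 ± 722 (SD, n = 3). It rose 11.2-fold (log2 3.47, SE 0.21, limma adjusted p = 0.00207; 9.02e-30 to 0.0422 over the alternatives). Whether it differs from the core genes was not tested.

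BNIP3L (NIX), the paralog of BNIP3, had 421.5, 587.1 and 943.2 scaled reads, then 1829, 2576 and 2529, with no overlap. Hypoxia was higher by 1.88 on the log2 scale (95% interval 1.13 to 2.62). The adjusted p was 0.165 by limma and 0.197 by edgeR, which did not call it, and 0.000349 by DESeq2, which did. The alternatives that called it also included the fit without normoxia replicate 3 and that with the GC trend removed. The other 10 receptors for mitochondria or endoplasmic reticulum that were tested had log2 differences from -0.24 (FUNDC1, adjusted p = 1.00) upward, and none was called. The median of the 12 was 0.06.

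The promoter of BNIP3 was searched in the same way as that of OPTN. Its window holds ACGTG on both strands at overlapping positions, which together spell CACGTG, beginning 134 bases before the start. The stretch is chr10:131982026-131982083 on the minus strand (RefSeq, GRCh38.p14), with CACGTG in capitals.
BNIP3: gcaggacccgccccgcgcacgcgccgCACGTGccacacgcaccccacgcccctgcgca
ACGTG stands in 21.4% of all 35116 windows, and whether a match bears on the difference of any gene was not tested. It also stands in the windows of 12 core genes, among them WIPI2, GABARAPL2 and ATG5. Of the 12, ATG10 was not tested by limma and the others did not pass the test.

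Of 12 other autophagosome formation genes tested, 8 had positive differences and none was called (median 0.03). WDR45B, a PI3P reader of the WIPI family, had 1500, 1347 and 1087 scaled reads in normoxia and 1705, 1997 and 1950 in hypoxia, with no overlap, and a difference of 0.53 (0.05 to 1.01, adjusted p = 1.00). The largest difference there was 0.61 for MAP1LC3B2. Among 12 genes that fuse autophagosomes with lysosomes, none was called (median -0.04), with the largest differences at 0.35 for the SNARE protein SNAP29 and -0.32 for the adaptor PLEKHM1. The 16 subunits of the proton pump that acidifies the lysosome had 11 positive differences and none called (median 0.08). The ends were 0.54 for ATP6V0C and -0.50 for ATP6V0A1.

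The 25 lysosomal enzymes and membrane proteins had 21 positive differences and a median of 0.20, and none was called. The protease CTSD (cathepsin D) had 7273, 5697 and 2425 scaled reads in normoxia and 5433, 8396 and 5618 in hypoxia, a difference of 0.45 (SE 0.41) with overlapping groups, and of -0.02 without normoxia replicate 3. NPC2, which carries cholesterol out of the lysosome, had a difference of 0.44. For 14 of the 25 genes normoxia replicate 3 was the lowest library, 56.0% against 28.3% of all genes tested. Without that library 12 of the 25 were positive and the median was 0.00, and without hypoxia replicate 2 13 of 25 were positive and the median was 0.03. LAMP1 shared its library order with 5 of these 25 genes (CTSA, CTSD, GAA, GUSB and PSAP), 20.0% against 3.69% of all genes tested, and its own difference of 0.16 was -0.19 without normoxia replicate 3. The same order was found for 3 of the 9 endothelial markers tested, CDH5, TIE1 and ESAM. VWF, another of them, had 3522, 2669 and 461.7 scaled reads in normoxia and 371.3, 4819 and 1567 in hypoxia, with hypoxia replicate 1 lowest. Hypoxia replicate 2 was the highest library for 7 of the 9 markers, 77.8% against 22.45% of all genes tested. TEK was lowest in normoxia replicate 1, and ERG and KDR were highest in normoxia replicate 2, so the endothelial markers did not all follow the order of LAMP1. Their part in the LAMP1 and lysosomal values was not tested.

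**Figure D4:**
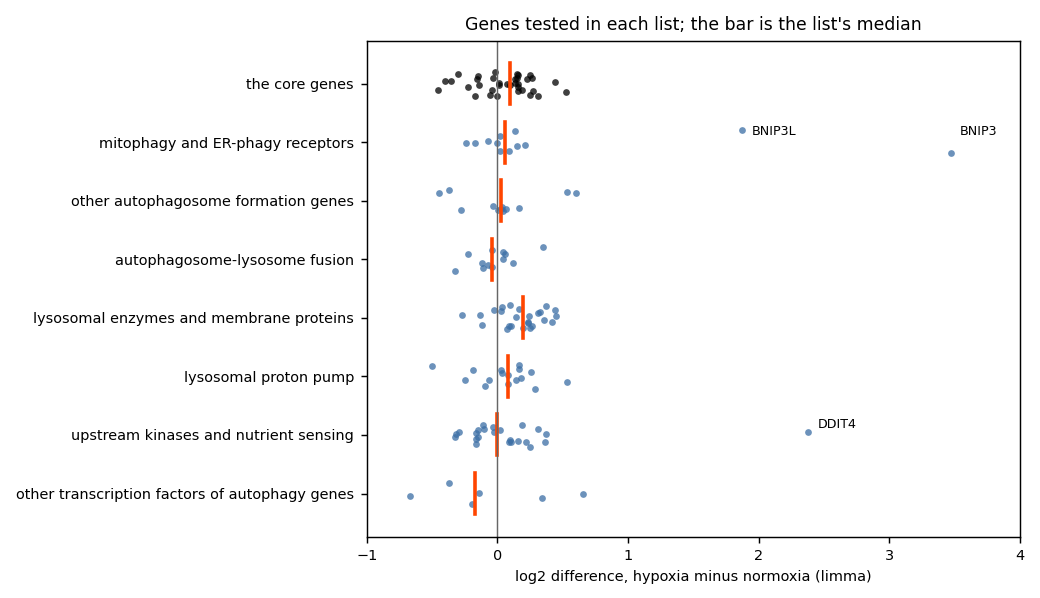
Log2 difference between hypoxia and normoxia (x axis, limma) of each tested gene in the 35 core genes (black) and 7 related lists (blue), with each list's median as an orange bar. Medians lie between -0.17 and 0.20; BNIP3, BNIP3L and DDIT4 stand apart at 3.47, 1.88 and 2.38.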

How the data were processed

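The members and lists were chosen with earlier results of these data known. The submitters' processing notes list CASAVA, HISAT2 2.0.5 and featureCounts 1.5.0-p3, with a mouse build although all identifiers are human Ensembl ones. The sources used here give neither build, annotation nor strand setting. The deposited signal, named FPKM by the authors, is read counts divided by 1 size factor per library (0.944 to 1.06): 100% of values were whole multiples of a step, within 0.05 of a step. FPKM were therefore computed here from GENCODE 29 exon lengths and the mean read total. All annotated exons of a gene were merged for its length, which need not be that of the transcripts present. Because of this scale, the planned limma test ran on log2(FPKM + 0.1), as the design assumed FPKM, with a filter of 1 FPKM in 3 libraries.

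limma 3.58.1 (trend, robust, group only; R 4.3.3) was fitted to all 10237 genes with Benjamini-Hochberg adjustment at 0.05. edgeR 4.0.16 (quasi-likelihood) and DESeq2 1.42.0 ran on the recovered reads. They and pseudocounts, filters, scalings, GC trend removal, a replicate block and each library left out made 16 alternatives. The scripts were tested on simulated data. Values in every library are given for the gene with the largest difference and the highest level of each role, those below the filter and any whose groups did not overlap. Other genes with values by library were added after their values were seen. In the related lists the called genes, otherwise the 2 largest differences, were named. Intervals of single genes cover the spread between libraries only.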

Additional observations from a re-analysis of the deposited data

How the results depend on the processing

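No core gene was called in any of the 16 alternatives, and the lowest adjusted p was 0.782 (RB1CC1). The count over all genes, 10, became 4 with no filter, 27 with the GC trend removed, 58 by DESeq2 and 1 to 20 with a library left out (20 without normoxia replicate 3, 1 without hypoxia replicate 3). With a replicate block it was 19. The labels do not say whether equal numbers pair the libraries. In their deviations from the group means, same-numbered libraries correlated at -0.40, 0.24 and 0.22. Differently numbered ones correlated at -0.56 (normoxia 3 with hypoxia 2) to 0.61 (normoxia 1 with hypoxia 2). Such deviations also moved with GC content, so they cannot settle the pairing. Among the related lists the count of 1 became 2 with the GC trend removed, with the replicate block and by DESeq2, and was 1 to 2 with a library left out; the added gene was BNIP3L each time. The block changed no call of a core gene. The median of the core genes, 0.10, was 0.022 with library total scaling, which moved the median of all genes to -0.07, and 0.05 to 0.11 with a library left out.

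The sign held in every alternative for 18 of the 35 core genes and turned in at least 1 for 17; none of these differences was called. With library total scaling ULK1 was -0.002, ATG9A -0.061 and ATG4A -0.06; with the GC trend removed ATG4A was -0.013. With TMM scaling AMBRA1 was 0.014 and MAP1LC3B 0.029. RB1CC1, AMBRA1 and TAX1BP1 were -0.061, 0.042 and -0.162 by edgeR and -0.067, 0.049 and -0.168 by DESeq2. With a library left out the log2 differences ran as follows: ULK1 -0.36 to 0.43, ATG13 -0.213 to 0.082, RB1CC1 -0.24 to 0.89, BECN1 -0.039 to 0.24, AMBRA1 -0.36 to 0.15, ATG9A -0.25 to 0.22, ATG3 -0.276 to 0.079, ATG4A -0.12 to 0.20, ATG4C -0.68 to 0.15, ATG5 -0.18 to 0.58, ATG7 -0.202 to 0.072, MAP1LC3A -0.42 to 0.13, MAP1LC3B -0.059 to 0.077, SQSTM1 -0.26 to 0.23, TAX1BP1 -0.32 to 0.87, CALCOCO2 -0.043 to 0.37 and LAMP1 -0.19 to 0.40. Among core genes whose sign held, they were PIK3C3 0.19 to 0.90, ATG14 0.22 to 0.57, ATG101 0.13 to 0.38, ATG2A -0.61 to -0.31, WIPI1 0.07 to 0.32, WIPI2 0.05 to 0.42, GABARAPL1 0.03 to 0.29, TFE3 -0.39 to -0.10 and LAMP2 0.06 to 0.31. Of the genes named from the related lists the sign turned for FUNDC1 (-0.62 to 0.31), CTSD (-0.019 to 0.77), ATP6V0C (-0.21 to 1.19) and MTOR (-0.39 to 0.009). The cause was not tested. Depth limits ULK2 most, with 5 to 18 reads a library, and the other 4 genes below the filter were not tested by limma.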

Other observations

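The kinases and nutrient sensors that act on the core machinery from above were compared in the same way. Of 27 listed upstream kinase and nutrient sensing genes, 26 were in the table and RRAGD was not analysed here. Of the 24 tested, 12 had positive and 12 negative log2 differences (hypoxia minus normoxia) with a median of 0.00, and limma called none. DDIT4 (REDD1), an inhibitor of the kinase mTOR that is known to respond to low oxygen, had scaled reads of 1488, 939.4 and 156.1 in normoxia and 2078, 4824 and 3156 in hypoxia. Its groups did not overlap, and its difference was 2.38 (SE 0.76, 95% interval 0.62 to 4.15), but the adjusted p was 1.00 by limma and 0.155 by DESeq2. Normoxia replicate 3 was far below the other normoxia libraries, and without it the difference was 1.42. LAMTOR1, of the complex that anchors mTOR complexes to the lysosome, had 3558, 3204 and 3462, then 3146, 2911 and 3186. It was the 1 gene of the list with every hypoxia library below every normoxia library (-0.15, adjusted p = 1.00 by limma). Groups that do not overlap, in either direction, made up 8.33% of the list and 7.48% of all genes tested. MTOR itself had 861.1, 725.4 and 485.3, then 467.7, 764.2 and 596 (-0.16, -0.90 to 0.57), and RPTOR, a subunit of its complex, had a difference of 0.37.

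Of 6 other transcription factors of autophagy genes tested, 2 had positive differences and none was called (median -0.17). FOXO1 had 217.1, 256.6 and 233.2 scaled reads in normoxia and 96.45, 264.4 and 114.1 in hypoxia, a difference of -0.67 (-1.58 to 0.24) in which hypoxia replicate 2 lay above all normoxia libraries. DDIT3 (CHOP), a factor of the stress response, had 529.6, 331.4 and 904.7, then 1286, 721.7 and 672.1 (0.66, -0.28 to 1.59).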
